A study of Mus musculus with 66 samples.

Results

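The 10 genes of ER-associated degradation and of the ATF6/XBP1 branch of the unfolded protein response were followed across 20 mRNA-Seq libraries of mouse C2C12 myoblasts, a muscle precursor cell line that forms multinucleated myotubes in low serum. They are the transcription factor and sensor genes Atf6, Ern1 and Xbp1, the degradation genes Syvn1, Sel1l, Herpud1, Edem1 and Derl3, and the luminal stress genes Manf and Creld2. The set was chosen by name, with earlier results of these data known, and its 10 rows were taken from a table of 22489 genes. The libraries came from untransfected C2C12 cells (WT) and from 9 Tet-On lines, each with a doxycycline-inducible transgene that encodes GFP fused to the N-terminus of H3mm7, H3mm11, H3mm12, H3mm13, H3mm16, H3.3, H3t, H3.1 or H3.2. The transgenes were delivered in a Tol2 transposon vector, cells were selected with doxycycline and G418, and GFP-positive cells were sorted, giving what the methods term stable clones. WT carries no transgene. When doxycycline was given to the mRNA-Seq cultures is not given in the sources used here. Growing cells were kept in 20% fetal bovine serum, and differentiated cells were moved at confluence to 2% horse serum and harvested 48 h later. By the sequence class of the fused histone, 6 lines were H3.3-type (H3mm7, H3mm11, H3mm12, H3mm13, H3mm16 and H3.3 itself) and 3 were H3.1/H3.2-type (H3.1, H3.2 and H3t). Each line had 1 library per state, so lines served as the units of comparison and a single line had no replicate. The table heads the H3t libraries H3mmT, and they were matched to H3t as the remaining line.

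Misfolded proteins in the ER are picked out by lectins such as Edem1, passed through a membrane complex built around the ubiquitin ligase Hrd1 (Syvn1) and its partner Sel1l, and degraded by the proteasome, with Herpud1 and the derlins as further parts of that complex. When unfolded proteins accumulate, the sensor Ire1 (Ern1) splices the Xbp1 mRNA into a form that encodes an active factor, while Atf6 leaves the ER and is cleaved to release another. Both factors raise degradation genes and chaperones, and a further sensor, PERK, slows translation and acts through Atf4. ER stress signalling has been described in myoblasts induced to differentiate in low serum.

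Promoter sequences are shown because Atf6 and Xbp1 are known to act through short DNA elements, which some members carry near their start. RefSeq windows from 250 bases before to 50 bases after the start (GRCm38.p6) matched 8 of the 10 members by symbol, and each matched the mm9 genome exactly at 1 place on its chromosome. Windows for Atf6 and Manf were not analysed here. The ER stress element ERSE (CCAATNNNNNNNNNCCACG, searched on both strands) joins a box bound by NF-Y to a box bound by ATF6. ERSE-II (ATTGGNCCACG) brings the same boxes closer together, with the NF-Y box inverted. In the stretches below, written along the strand of the gene, capitals mark the whole element.
Herpud1, ERSE-II, chr8:96910268-96910297 (mm9, + strand): cgggcgctgATTGGGCCACGttggacactg
Syvn1, ERSE, chr19:6046527-6046556 (mm9, + strand): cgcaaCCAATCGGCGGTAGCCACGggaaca
Derl3, ERSE on the opposite strand, chr10:75355982-75356011 (mm9, + strand): tctacCGTGGGACTTCCCCATTGGctagcc
Creld2, ERSE on the opposite strand, chr15:88649945-88649974 (mm9, + strand): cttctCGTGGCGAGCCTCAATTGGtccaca
ERSE was thus present in 3 of the 8 windows and ERSE-II in 1. For each member 1 window was searched, and any further windows of it were not. Of all 32851 promoter windows, 39 (0.119%) held ERSE and 12 (0.0365%) held ERSE-II. The windows of Sel1l, Edem1, Xbp1 and Ern1 held neither, and the XBP1 core TGACGTGG was found in 0 of the 8, against 0.676% of all windows. A match is a description of the letters and not a measured binding site.

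The libraries were alike in the number of genes at 1 FPKM or more (fragments per kilobase of transcript, scaled to library size), with 10381 to 10891 genes. Genes above 0 FPKM varied more, from 13858 in growing WT to 16865 in growing H3.3. The summed FPKM of the libraries also differed, from 409319 in growing WT to 894105 in differentiated H3mm7. Read counts are not part of the table, so the depth behind each value is unknown. The 10 myotube markers (Myog, Acta1, Ckm and others) all rose with differentiation and the 8 proliferation markers all fell, and Myod1, Myf5, Cdh15 and Des reached 1 FPKM in some library while Pax7 did not. Of 5 markers each, Adipoq, Plin1 and Cidec (adipocytes), Ptprc, Emr1 and Csf1r (macrophages), Epcam, Cdh1 and Krt18 (epithelium) and Ibsp and Sp7 (osteoblasts) stayed below 1 FPKM in every library. The remaining markers of these lists reached 1 FPKM in some library, the highest being Pparg, at 14.4 to 29.8 FPKM in growth and 6.77 to 17.5 FPKM in differentiated cells, Runx2, at 8.03 to 14.5 and 2.7 to 5.17 FPKM, and Krt14, at 55.9 to 86.9 and 4.5 to 26 FPKM. Summed levels in growth and in differentiated cells were 15.3 to 35 and 7.14 to 18.1 FPKM for adipocyte markers, 1.07 to 4.35 and 0.377 to 4.52 FPKM for macrophage markers, 56.6 to 87.1 and 4.68 to 26.1 FPKM for epithelial markers, and 8.31 to 14.8 and 2.7 to 7.56 FPKM for osteoblast markers. Their part in the members' levels was not tested. The WT libraries stood apart, with 233 of 10954 genes below 1/8 of the lowest GFP-H3 line in both states, Gapdh and Rps2 among them and none of the 10 members.

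Of the 10 members, 9 had a mean of at least 1 FPKM over the 20 libraries and were tested. Herpud1, Atf6, Sel1l, Syvn1, Xbp1 and Ern1 rose with differentiation. Creld2, Manf and Edem1 did not pass the test, and their lines went in different directions. Genes that rose made up 30.5% of the 10954 genes tested and genes that fell 28.1%, so the 6 higher and 0 lower of 9 are to be read beside calls for 58.6% of all genes. The median difference of the 9 members was 0.91 on the log2(FPKM + 1) scale, beside 0.04 for all genes tested. In bulk RNA, a change in the number of cells of a type and a change in RNA per cell cannot be told apart.

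**Figure D1:**
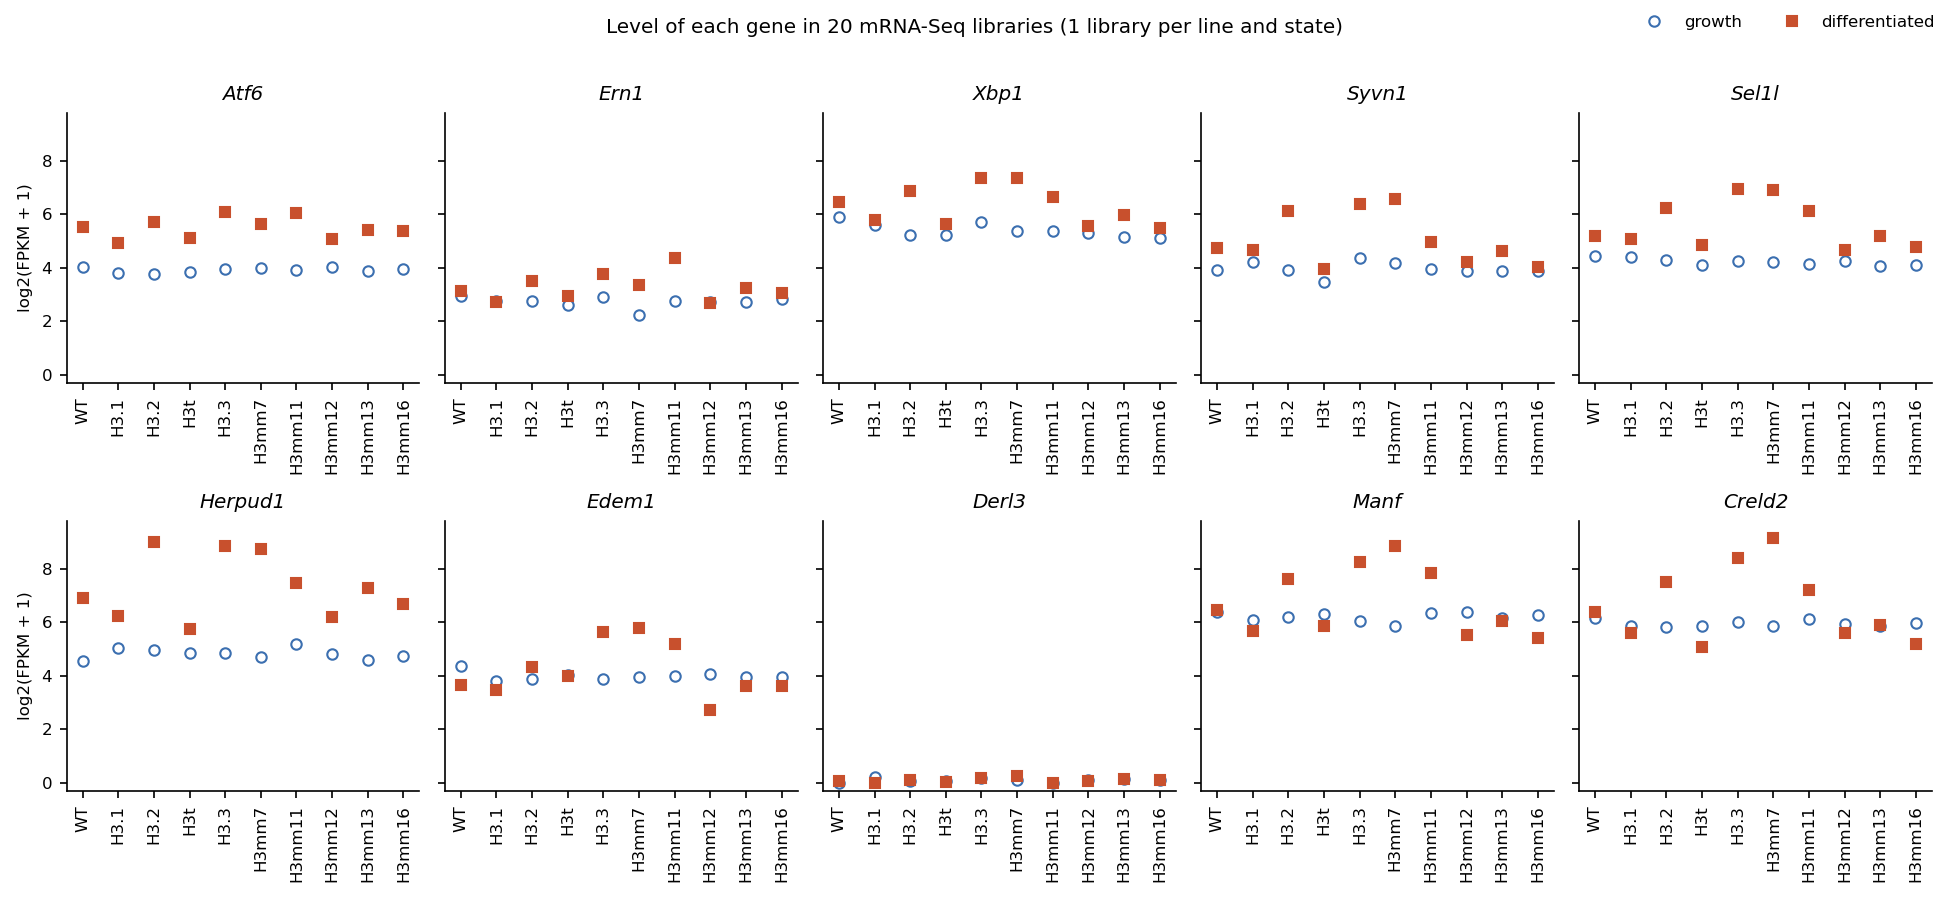
Level of each of the 10 genes, as log2(FPKM + 1), in the WT and 9 GFP-H3 lines in growth (open circles) and after differentiation (filled squares), 1 library per point. For the 9 genes other than Derl3, growth points lie close together and the 4 highest differentiated GFP-H3 lines are H3.2, H3.3, H3mm7 and H3mm11, while Derl3 stays near 0 in both states.

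Among the sensors, Atf6 (chromosome 1: 172634588-172797902, mm9, minus strand) encodes the membrane-bound factor that is activated by cleavage. Its level in growth was 12.6 to 15.4 FPKM with a median of 14.4, and in differentiated cells 29.5 to 67.3 FPKM with a median of 43.2. The states did not overlap, and every line rose, by 1.58 ± 0.13 on the log2 scale (SE, 10 libraries each; limma, adjusted p = 8.1e-10). Atf6 moved more evenly over the lines than any other tested member, with an increase of 1.06 in H3mm12 at the least and 2.13 in H3.3 and H3mm11 at the most.

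Ern1 (chromosome 11: 106255964-106349166, mm9, minus strand) encodes Ire1, the kinase and endonuclease that splices Xbp1 mRNA, and was the lowest of the tested members per length. It was at 3.73 to 6.67 FPKM in growth (median 5.72) and 5.39 to 19.7 FPKM in differentiated cells (median 8.18), with overlapping states. Ern1 rose by 0.56 ± 0.17 on the log2 scale (limma, adjusted p = 0.0066) and was higher in 8 of 10 lines. The exceptions were H3.1, at 5.69 FPKM in growth and 5.5 FPKM after differentiation, and H3mm12, at 5.52 and 5.39 FPKM. H3mm11 was the highest differentiated library by a clear margin, at 19.7 FPKM against 12.7 FPKM in H3.3.

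Xbp1 (chromosome 11: 5420662-5425896, mm9, plus strand) encodes the factor made active by that splicing. Values per gene do not tell the spliced from the unspliced mRNA. In growth Xbp1 lay between 33.7 and 58.6 FPKM (median 39.5) and in differentiated cells between 43.5 and 165 FPKM (median 74.3). The ranges overlapped, but all 10 lines were higher after differentiation, and the difference was 0.91 ± 0.23 on the log2 scale (limma, adjusted p = 0.0019).

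In the degradation complex, Herpud1 (chromosome 8: 96910338-96919277, mm9, plus strand), which encodes a stress-induced membrane protein, changed the most. It was at 22.4 to 35.7 FPKM in growth (median 27.5) and 53.4 to 515 FPKM in differentiated cells (median 138). No differentiated library came down to the growth range. The difference was 2.49 ± 0.36 on the log2 scale (limma, adjusted p = 4.2e-06), a 5.61-fold change on that scale. Within lines, the FPKM ratio of differentiated to growing cells ran from 1.93 in H3t to 17.1 in H3.2.

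Sel1l (chromosome 12: 93044483-93087597, mm9, minus strand), the adaptor that stabilises Hrd1, was nearly constant in growth, at 15.8 to 20.8 FPKM (median 17.8). After differentiation it was at 24.3 to 123 FPKM (median 35.7), above the growth range in every line. Its difference was 1.38 ± 0.26 on the log2 scale (limma, adjusted p = 0.00013). Syvn1 (chromosome 19: 6046576-6053712, mm9, plus strand), the ligase itself, was at 10.1 to 19.4 FPKM in growth (median 14) and 14.5 to 93.4 FPKM after differentiation (median 25). The Syvn1 states overlapped, all 10 lines were higher, and the difference was 1.07 ± 0.30 (limma, adjusted p = 0.004). Of the 4859 exonic bases of Syvn1, 83 (1.71%) overlap Mrpl49 on the opposite strand, and whether reads were counted by strand is not given in the sources used here.

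Differentiated against growth, 3 of the 9 tested members (Atf6, Herpud1 and Sel1l) had all 10 differentiated libraries above all 10 growth libraries, a pattern that 8.85% of all genes tested showed.

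Edem1 (chromosome 6: 108778635-108809350, mm9, plus strand), the lectin that marks misfolded glycoproteins for degradation, was at 13 to 19.9 FPKM in growth (median 14.6). In differentiated cells it spanned 5.66 to 54.6 FPKM (median 13.4). It was higher than in growth in 4 of 10 lines, and the mean difference of 0.21 ± 0.31 did not pass the test (limma, adjusted p = 0.58). Its lines moved apart. H3mm7 went from 14.4 to 54.6 FPKM and H3mm12 from 15.7 to 5.66 FPKM.

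Derl3 (chromosome 10: 75356143-75358686, mm9, plus strand), a derlin best known from secretory tissues, was at or below 0.196 FPKM in all 20 libraries and was not tested. It is listed at 0 in WT growth, in both H3mm11 libraries and in differentiated H3.1. Its promoter window holds the ERSE shown above.

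Manf (chromosome 9: 106740643-106794310, mm9, minus strand) encodes a secreted ER stress protein, and Creld2 (chromosome 15: 88650076-88657111, mm9, plus strand) an ER luminal protein of the disulfide isomerase kind. Manf was at 56.8 to 82.5 FPKM in growth (median 74.7) and 41.9 to 463 FPKM after differentiation (median 75.9). Its difference of 0.55 ± 0.38 did not pass the test (limma, adjusted p = 0.22), with 5 of 10 lines higher. Of the 3524 exonic bases of Manf, 146 (4.14%) overlap Vprbp on the opposite strand. Creld2 was at 55.4 to 71.3 FPKM in growth (median 59.1) and 33 to 572 FPKM after differentiation (median 70.7). For Creld2 the difference was 0.66 ± 0.42 (limma, adjusted p = 0.18), with 6 of 10 lines higher. For both genes the highest and lowest lines lay further apart after differentiation than in growth.

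**Figure D2:**
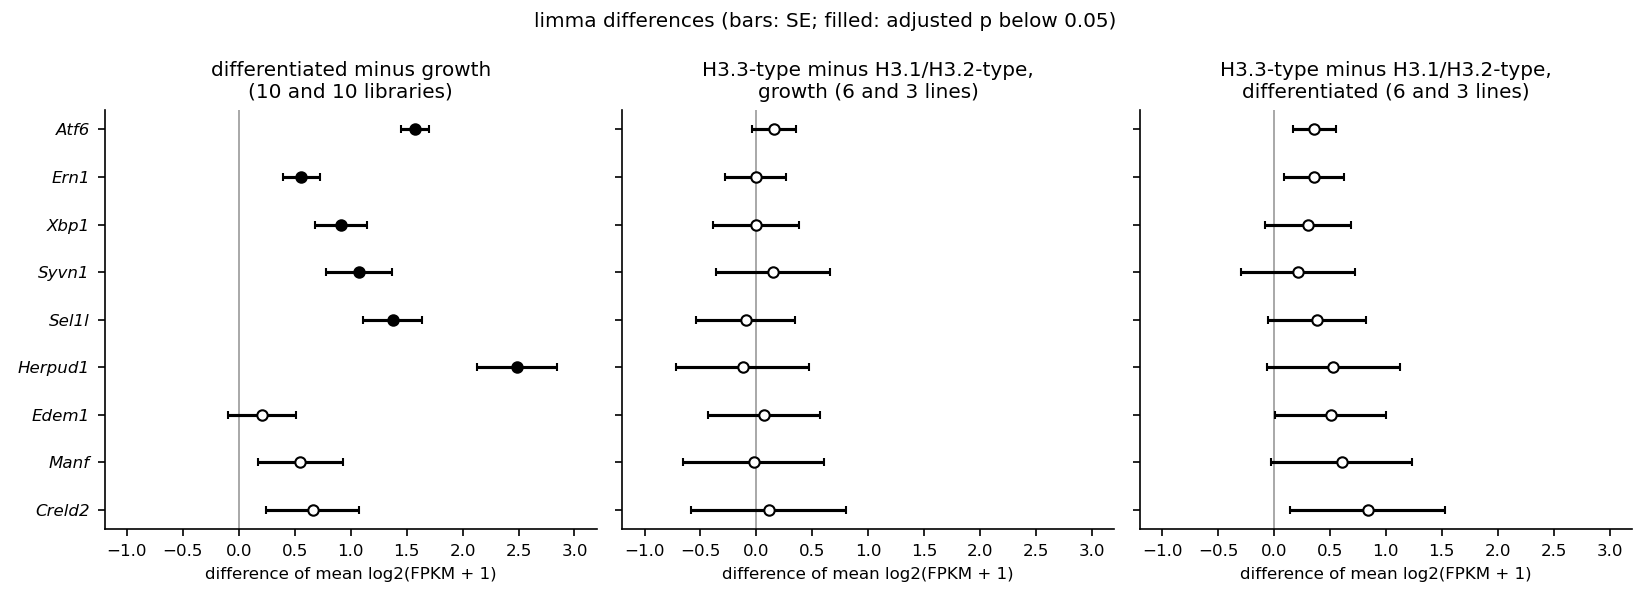
Difference of mean log2(FPKM + 1) for the 9 tested genes, with SE bars, for differentiated minus growth (10 and 10 libraries) and for H3.3-type minus H3.1/H3.2-type lines (6 and 3) in each state. Filled points have an adjusted p below 0.05, which 6 genes reach in the left panel and 0 in the others.

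The change with differentiation is given here line by line, with no test between lines, since each had 1 library per state. After differentiation, the 4 highest GFP-H3 lines were H3.2, H3.3, H3mm7 and H3mm11 for each of the 9 tested members. These lines were read off the members, so the count is a description. The same 4 lines were the highest for 6.93% of the 10931 genes tested in the GFP-H3 libraries. In growth they were the 4 highest for 0 of 9 members, beside 0.439% of all genes. H3.2 is of the H3.1/H3.2-type and the other 3 lines are H3.3-type, so the 4 lines were of both sequence classes.

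H3mm7 was highest for 4 members (Syvn1, Edem1, Manf and Creld2), and H3.3 for 3 (Sel1l, Xbp1 and Atf6). In H3mm7 Creld2 went from 57.2 to 572 FPKM, a ratio of 9.99, and Manf from 56.8 to 463 FPKM, a ratio of 8.14. In H3.3 Sel1l went from 17.9 to 123 FPKM and Xbp1 from 51.7 to 165 FPKM. The median log2 change of the 9 members was 2.39 in H3mm7 and 2.13 in H3.3, while that of all genes was 0.03 and 0.06. In both lines 9 of 9 members were higher after differentiation, as they were in H3.2 and H3mm11, with median log2 changes of 1.71 and 1.49. The count was 8 of 9 in WT and 5 to 7 of 9 in the other GFP-H3 lines. The share of all genes that were higher in each line is not given here.

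H3.2 and H3mm11 ranked the members differently. H3.2 had the highest differentiated Herpud1 of the 10 lines, at 515 FPKM, and Syvn1 at 69.1 FPKM, but Edem1 only went from 13.7 to 18.9 FPKM. H3mm11 had the highest Ern1, at 19.7 FPKM, and Atf6 at 66 FPKM, close to the 67.3 FPKM of H3.3. Herpud1 in H3mm11, at 176 FPKM, was well below the 430 to 515 FPKM of H3mm7, H3.3 and H3.2 and near the 157 FPKM of H3mm13. Of the 4 lines, H3mm11 thus had the highest Ern1 but the lowest Herpud1, Syvn1, Sel1l, Xbp1 and Creld2.

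**Figure D3:**
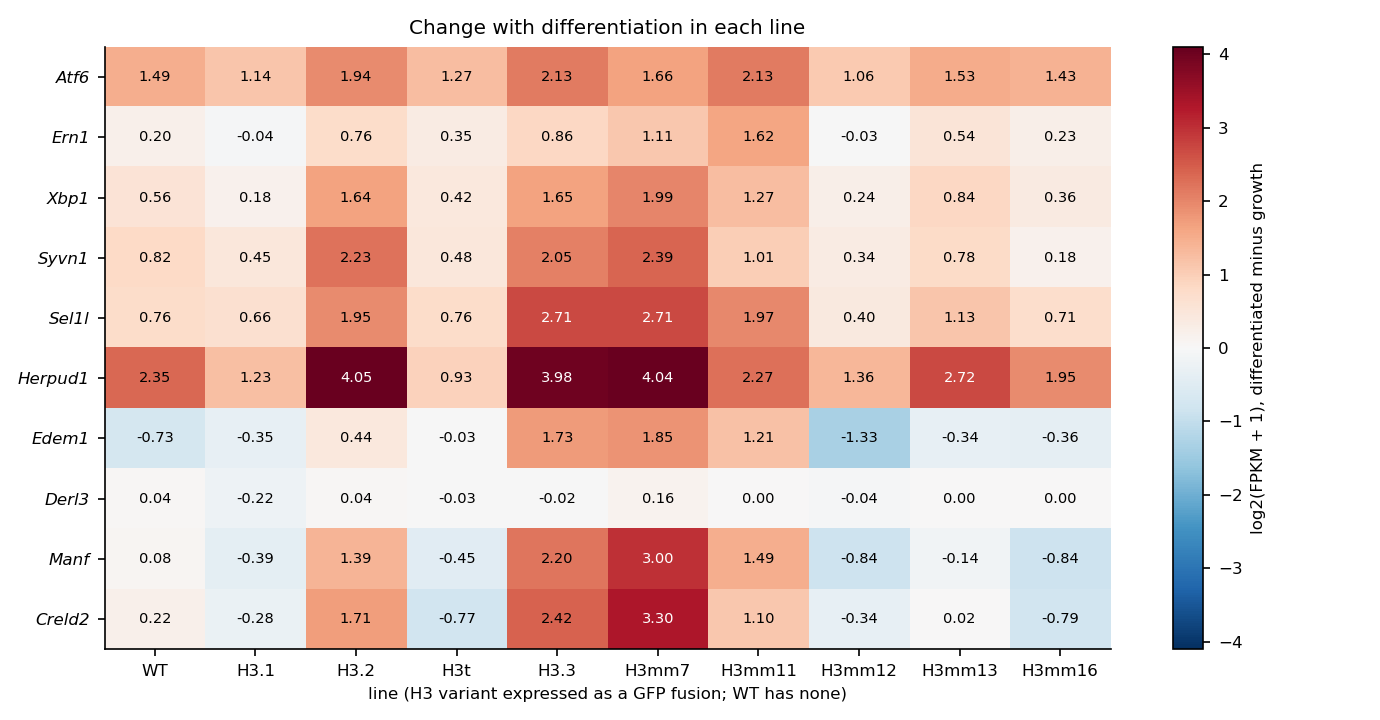
Change of log2(FPKM + 1) from growth to differentiated cells for each gene (rows) in each line (columns), 1 library per state, with red for higher and blue for lower after differentiation. Herpud1 and Atf6 are positive in every line, whereas Edem1, Manf and Creld2 are positive in H3.2, H3.3, H3mm7 and H3mm11 and between -1.33 and 0.22 elsewhere.

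In the remaining GFP-H3 lines some members still rose, others did not, and Ern1 varied between lines. Herpud1, Sel1l, Syvn1, Xbp1 and Atf6 were higher after differentiation in H3.1, H3t, H3mm12, H3mm13 and H3mm16 as well. Manf and Edem1 were lower than in growth in each of these 5 lines. Creld2 was lower in 4 of them and at 57.4 and 58.3 FPKM in H3mm13. Ern1 was higher in H3t, H3mm13 and H3mm16 and nearly unchanged in H3.1 and H3mm12. Some of these changes were small, such as Edem1 from 15.5 to 15.1 FPKM in H3t and Syvn1 from 13.6 to 15.5 FPKM in H3mm16. In H3mm16, for example, Herpud1 went from 25.6 to 102 FPKM while Manf went from 75.8 to 41.9 FPKM and Creld2 from 62.2 to 35.5 FPKM. In H3mm12 Atf6 went from 15.4 to 33 FPKM and Edem1 from 15.7 to 5.66 FPKM. The median log2 change of the 9 members was between 0.18 (H3.1) and 0.78 (H3mm13) in these 5 lines.

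WT lay in the middle. After differentiation its level was inside the range of the 9 GFP-H3 lines for 9 of 9 tested members, ranking 5 or 6 of 10. Over all genes tested, 40% had WT outside that range. Herpud1 in WT went from 22.4 to 119 FPKM and Atf6 from 15.3 to 44.6 FPKM, while Manf went from 82.2 to 86.6 FPKM and Edem1 from 19.9 to 11.6 FPKM. In growth WT was outside the range of the lines for 6 of 9 members, beside 48.4% of all genes, with the highest Sel1l, Edem1, Xbp1, Ern1 and Creld2 and the lowest Herpud1. Without WT, 6 of 9 members were again called higher, beside 3500 of the 10931 genes tested.

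Myotube marker levels of the differentiated libraries are given beside this order. Summed over the 10 markers, they were 4849 FPKM in H3mm11, 6507 FPKM in H3mm7, 6711 FPKM in H3.3 and 11682 FPKM in H3.2, and elsewhere ran from 4608 FPKM in H3.1 and 4827 in H3t to 21863 in H3mm12. Summed proliferation markers were 97 to 152 FPKM in H3.2, H3.3, H3mm7 and H3mm11 and 88 to 220 FPKM in the other lines. Over the 9 GFP-H3 lines, each point being 1 library, the mean z-score of the members had a Pearson r of -0.33 with the summed myotube markers and -0.33 with the summed proliferation markers. The part of the degree of differentiation in the members' levels was not tested.

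The spread between lines grew with differentiation for the set. The SD of log2(FPKM + 1) over the 9 GFP-H3 lines was 0.08 to 0.26 in growth and 0.42 to 1.49 in differentiated cells for the 9 tested members. The median over all genes was 0.21 in growth and 0.31 in differentiated cells. Creld2 had the largest increase, from 0.09 to 1.49, a factor of 15.9, followed by Edem1, from 0.08 to 1.06. Ern1 had the smallest, from 0.19 to 0.54, a factor of 2.86. An SD at least 2 times that in growth was found for 9 of 9 tested members and for 27.4% of all genes, a ratio chosen after the values were seen.

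**Figure D4:**
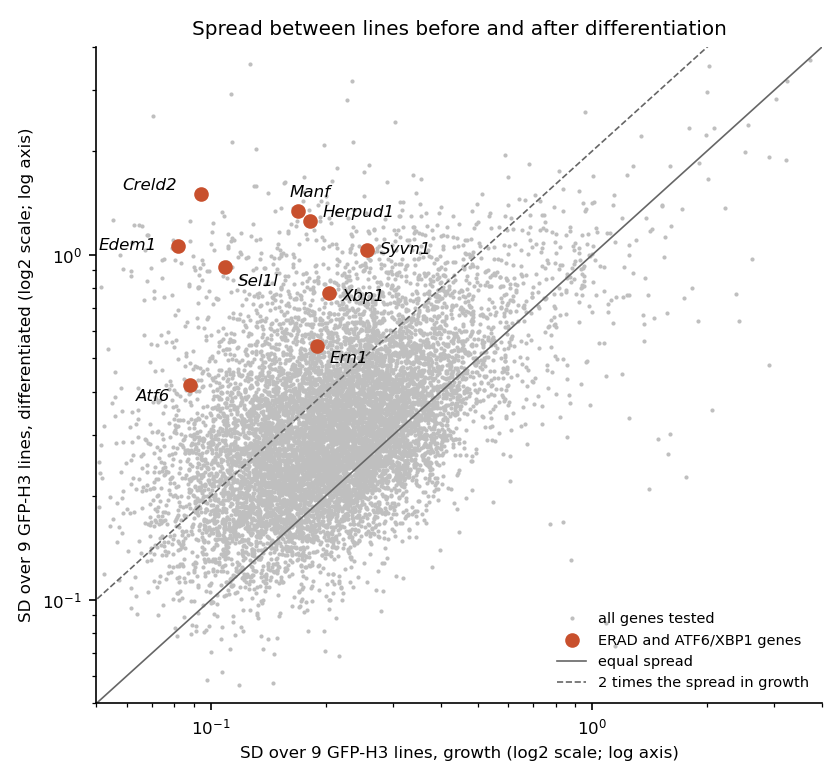
SD of log2(FPKM + 1) over the 9 GFP-H3 lines in growth (x axis) and in differentiated cells (y axis), both on log axes, for the genes tested (grey, with 51 genes outside the axes) and the 9 tested members (red). The members lie above the dashed line of 2 times the spread in growth, with factors from 2.86 (Ern1) to 15.9 (Creld2).

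Levels of the members were also compared with each other over the 9 GFP-H3 lines, which share their libraries. In growth, the Pearson r of the 36 pairs ran from -0.69 to 0.79 with a median of 0.18. After differentiation it ran from 0.51 to 1.00 with a median of 0.89, and 24 of 36 pairs were at 0.8 or more. Sel1l and Xbp1 followed each other most closely, and Syvn1 and Ern1 least.

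The question whether the sequence class of the fused histone goes with the level of the set was tested in the 18 GFP-H3 libraries. No member passed in either state. In growth, the differences between H3.3-type and H3.1/H3.2-type lines ran from -0.12 (Herpud1) to 0.15 (Atf6) on the log2 scale, and 0 of 9 members were called by limma, beside 0.247% of the 10931 genes tested. Atf6 in growth was at 13.8 to 15.4 FPKM in the 6 H3.3-type lines and 12.6 to 13.4 FPKM in the 3 H3.1/H3.2-type lines. These ranges did not overlap, as for 1 of 9 members and 9.95% of all genes. The difference of 0.15 ± 0.20 had an adjusted p of 0.85 (limma). With growth in a fit of its own, its SE was 0.08 (limma, adjusted p = 0.33).

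In differentiated cells, the 9 tested members were all higher on average in the H3.3-type lines, by 0.22 (Syvn1) to 0.84 (Creld2), but 0 of 9 were called, beside 2.5% of all genes. Creld2 was at 35.5 to 572 FPKM in the 6 H3.3-type lines and at 33, 47.6 and 184 FPKM in H3t, H3.1 and H3.2, and its difference was 0.84 ± 0.69 (limma, adjusted p = 0.53). Atf6 had the smallest p, with a difference of 0.36 ± 0.20 (limma, adjusted p = 0.31). Single lines moved these values. The Creld2 difference was 0.34 without H3t and 1.56 without H3.2, and that of Atf6 was 0.20 without H3.1 and 0.59 without H3.2. In the same comparison, 0 of 8 proliferation markers were higher on average in the H3.3-type lines, with a median of -1.28 and with Mki67 and Top2a called lower, and 9 of 9 tested myotube markers were higher on average, with a median of 0.60 and 0 called. The part of these markers in the members' levels was not tested. The types overlapped for each of the 9 members, and 6.11% of all genes had types that did not overlap. The change with differentiation was compared between the types by an interaction term, which called 0 of 9 members and 0% of all genes, with differences of 0.07 (Syvn1) to 0.73 (Creld2), the latter being 0.24 without H3t and 1.47 without H3.2. At an unadjusted p below 0.05, limma called 0 of 9 members in each of these 3 tests. Over the 10931 genes tested, it called 1033 in growth, 2197 in differentiated cells and 999 for the interaction. This fit shares 1 estimate of the spread over both states. In it, the SEs of the members were 0.20 to 0.69 for the types within a state and 0.28 to 0.98 for the interaction. With each state in a fit of its own, they were 0.08 (Atf6) to 0.17 (Syvn1) in growth. In differentiated cells they were then 0.26 (Atf6) to 0.905 (Creld2). Differences of about the size of these SEs were not detectable, and larger ones could also go uncalled. Atf6 in differentiated cells, at 0.36 ± 0.20, was not called (limma, adjusted p = 0.31). The smallest difference that would have been called was not worked out.

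Other genes of the same pathways were read from lists of related genes. Their counts are to be read beside the 30.5% of all genes tested that rose and the 28.1% that fell. Of 34 further degradation genes tested, 19 rose with differentiation and 4 fell, with a median of 0.43 on the log2 scale. Dnajb9, a luminal co-chaperone that delivers substrates for degradation, rose by 2.54 ± 0.35 (limma, adjusted p = 2.7e-06), from a median of 6.84 to 47.2 FPKM. Derl1, a derlin of the same family as Derl3, rose by 1.45 ± 0.23 from a median of 57.6 to 144 FPKM, and the rhomboid protease Rhbdd1 by 1.47 ± 0.16. The genes that fell the most did so slightly, by 0.40 for the reductase Dnajc10, 0.29 for the p97 cofactor Nploc4 and 0.24 for the conjugating enzyme Ube2j1.

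Of 24 further targets and factors of the ATF6/XBP1 branch, 5 rose and 5 fell, with a median of 0.11. Of all genes tested, 30.5% rose and 28.1% fell. Wfs1, the ER membrane protein wolframin, rose by 1.29 ± 0.20, the co-chaperone Dnajc3 by 0.87 ± 0.31 and the Golgi regulator Arfgap3 by 0.62 ± 0.10. The related factor Creb3l1 fell by 0.73, the retrieval receptor Kdelr3 by 0.54 and the vesicle coat subunit Sec24d by 0.44. Of 14 ER chaperones and folding enzymes, 4 rose and 0 fell, beside the same 30.5% and 28.1% of all genes. Among them, Hspa5 (BiP), which holds the sensors inactive, rose by 1.38 ± 0.48 (limma, adjusted p = 0.017) and in 7 of 10 lines.

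The PERK branch rose the most broadly, with 10 of 11 genes higher and 0 lower and a median of 2.18. Over all genes tested, 30.5% were higher and 28.1% lower. The pseudokinase Trib3 rose by 3.03 ± 0.51, the factor Atf3 by 2.62 ± 0.41 and the glutathione-degrading enzyme Chac1 by 2.39 ± 0.33, each in 10 of 10 lines. H3.2, H3.3, H3mm7 and H3mm11 were the 4 highest differentiated GFP-H3 lines for 11 of the 14 chaperones and 8 of the 11 PERK branch genes. They were so for 6 of the 34 degradation genes and 6 of the 24 ATF6/XBP1 genes, beside 6.93% of the 10931 genes tested. The 4 lines had been read off the members, so these counts are a description.

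**Figure D5:**
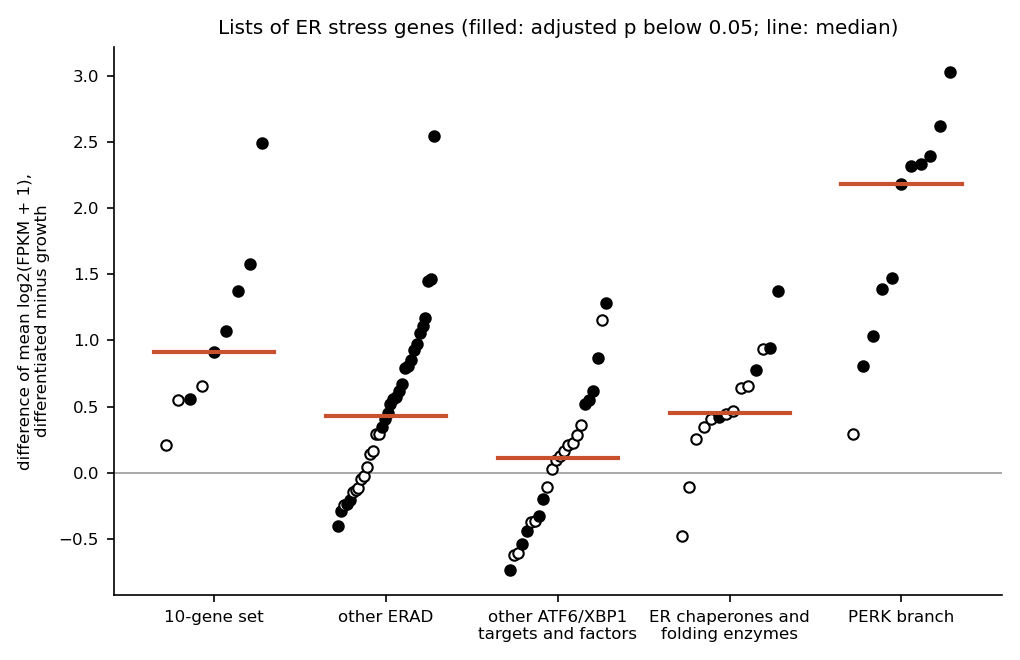
Difference of mean log2(FPKM + 1), differentiated minus growth, for each tested gene of the 10-gene set and of 4 lists of related genes. Filled points have an adjusted p below 0.05, and the red lines mark medians of 0.91, 0.43, 0.11, 0.45 and 2.18 from left to right.

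The genes most like the set were found by the Pearson r of log2(FPKM + 1) with the mean z-score of the 9 tested members over the 9 differentiated GFP-H3 lines. Hspa5 was the closest (r = 0.992), from 205 FPKM in H3mm12 to 3688 FPKM in H3.3. Sdf2l1, an ER luminal protein, ran from 13.1 FPKM in H3t to 600 FPKM in H3mm7, and the disulfide isomerase Pdia4 from 31.6 to 632 FPKM. Zbtb21, Wars (tryptophanyl-tRNA synthetase), Pi4k2a, Ndel1, Mknk1, Dnajc3 and Paqr3 completed the 10 closest, with r of at least 0.976. Of 10920 other genes, 251 (2.3%) had an r of 0.9 or more, among them 9 of 14 chaperones, 3 of 11 PERK branch genes, 4 of 34 degradation genes and 4 of 24 ATF6/XBP1 genes.

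Taken singly over all 20 libraries, the members had different nearest genes. Atf6 was closest to the autophagy gene Atg13 (r = 0.981), Herpud1 to Extl1 (r = 0.976), Sel1l to the proline synthesis gene Pycr1 (r = 0.964) and Ern1 to Agpat9 (r = 0.937). Edem1 was closest to Serp1 (r = 0.965), which encodes a small ER membrane protein, and Manf to Pdia4 (r = 0.981). Syvn1 (r = 0.947) and Xbp1 (r = 0.963) were both closest to Sel1l, and Creld2 to Manf (r = 0.971).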

How the data were processed

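Gene expression was measured by mRNA-Seq (oligo dT reverse transcription) in 10 lines in 2 states. The authors deposited one table of FPKM values per gene, made with TopHat2 2.0.8 on mm9 and Cufflinks 2.0.1 with Cuffdiff per the submitters' processing notes. Strand and depth are not given in the sources used here. FPKM were analysed as deposited, on the log2(FPKM + 1) scale, which understates changes of low genes, for genes with a mean of at least 1 FPKM over the libraries of the fit. Tests used limma 3.58.1 in R 4.3.3 (trended and robust empirical Bayes), with Benjamini-Hochberg adjustment over all genes tested and a threshold of 0.05. They were tested on simulated data with the same spread per gene in both states and no pairing of libraries. Those data did not mimic the wider spread of the members after differentiation. State was compared over 20 libraries, and histone type, state and their interaction over 18. The p-values measure the spread between lines. Members and lists of related genes were chosen with earlier results of these data known. From each list, up to 3 called genes with the largest change in each direction are named, together with the 10 genes most like the set and the gene nearest to each member. The same cell line gave both states, and deviations of paired libraries from their state means correlated at 0.273 to 0.877. Loci are from GENCODE vM1. The 3′-end, ChIP and input data of the series were not analysed here.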

Additional observations from a re-analysis of the deposited data

Results flagged for a closer look

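Of 18 groups of 10 libraries (9 tested members in 2 states), 2 held a library far from the others, where chance gives about 5 in 100. In growth, WT had the highest Edem1, at 19.9 FPKM with 15.7 FPKM next, a gap of 0.554 of the whole range on the log2 scale. Also in growth, H3mm7 had the lowest Ern1, at 3.73 FPKM with 5.05 FPKM next, a gap of 0.508 of the range. No member was flagged in differentiated cells, where the spread between lines was wider.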

How the results depend on the processing

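The count of 6 members called higher with differentiation was 6 under 18 of 19 alternatives, including both other pseudocounts (0.1 and 0.01 FPKM), both other filters (none and 5 FPKM), both other scalings and leaving out each line in turn (6 to 6). It was 4 when a minimum log2 difference of 1 was also required, which Xbp1 and Ern1 did not reach. With the cell line as a replicate block, 6 members were called and no call of a member changed. The paired interaction test called 0 members. No member was called by type in any alternative, nor with each state in a fit of its own, an alternative chosen after seeing the data. Leaving out 1 line moved the Syvn1 difference between types in differentiated cells from -0.26 to 0.82 and its interaction from -0.23 to 0.66, across 0. Of the 10 genes most like the set, 4 remained when likeness was taken over all 18 GFP-H3 libraries and 9 with a pseudocount of 0.1 FPKM. Calls over all genes depended more on the settings. For the state they were 6419, 1893 with the minimum difference of 1 and 7702 (70.3% of genes tested) with the replicate block. For type in growth they were 27, and 2 (without H3.1) to 159 (growth alone) elsewhere. For type in differentiated cells they were 273, and 1 (differentiated cells alone) to 772 (without H3.2) elsewhere, and for the interaction 0 to 5. With 1 library per line, no difference between single lines was tested, and unknown depth limits what low values such as those of Derl3 can show.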
